A study of Homo sapiens with 4 samples.

Results

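Ribosome biogenesis factors are the nucleolar proteins that transcribe, cut, modify and fold ribosomal RNA and assemble it with ribosomal proteins. The 60 factors described here were chosen by gene name. Every probe set that the array's annotation gives to exactly 1 of these genes was read, and where a gene had several, the brightest one (the highest mean over all arrays) stood for it. Of the 60 factors, 52 had such a probe set, and all 52 passed the filter on dim signals. They make up 52 of the 13559 genes tested on the array.

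RNA polymerase I transcribes the precursor of ribosomal RNA in the nucleolus with the help of UBTF, RRN3 and the SL1 complex. Small nucleolar ribonucleoproteins (snoRNPs) then guide the methylation of the precursor (box C/D type) or its conversion of uridine to pseudouridine (box H/ACA type). A large assembly called the small subunit processome and a separate line of factors for the large subunit cut and fold the RNA into the precursors of both subunits. These genes are expressed in all growing cells and are known as targets of the transcription factor MYC.

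The cells were U937, an established human lymphoma line of monocytic character. One group had received shikonin, a naphthoquinone of gromwell roots, at 100 nM for 3 h (2 arrays), and the other the solvent dimethyl sulfoxide, DMSO (2 arrays), for which no time was given in the labels. Each array measured 54675 probe sets, and its values are linear intensities, called signals below, that had been brought to a common mean. Whether samples of a group came from separate cultures is not stated. The p-values therefore measure only the spread between these samples, which may be technical, and their precision is limited by there being 2 arrays a group.

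The arrays were alike, with median signals of 61.0 and 63.7 after shikonin and of 60.5 and 62.2 in DMSO. Of 12 myeloid markers, 10 were tested, among them ELANE, the neutrophil elastase (mean signal 20023 after shikonin and 20511 in DMSO), LYZ, lysozyme (9368 and 8689), and MPO, myeloperoxidase, which was dim in both (60.7 and 77.9). PTPRC, the leukocyte surface phosphatase CD45, was called lower and the other 9 were not called. Of 11 measured markers of T cells, B cells, epithelium and fibroblasts, 5 passed the filter and 0 were called by limma. These 5 included CD79A of B cells, with means of 235 after shikonin and 273 in DMSO, and the collagen gene COL1A1, with means of 196 and 209.

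The comparison asks which of these factors had other transcript levels after shikonin than in DMSO. Small rises predominated: RRP8, RRP9, EMG1, RRP1, DDX56, RRP12, UTP14A, NOP58, RRP1B and MRTO4 rose by 19.1% to 50.1%, and LTV1 fell by 23.3%. Thus 10 of the 52 factors were called higher and 1 lower by limma at an adjusted p under 0.05, while 41 were not called. Among all genes tested, 5.00% were called higher and 6.67% lower. Among the brightest 25% of genes, where the spread between arrays is smaller and which held 39 of the 52 factors, 10.6% were called higher and 9.06% lower, and of those 39 factors 6 were called higher and 1 lower. The 10 called higher and the 1 called lower rest on an error model in which the variance follows the signal. Limma with 1 variance prior for all signals called 0 of all genes tested (2407 had an unadjusted p under 0.05), and so 0 factors, of which 9 had an unadjusted p under 0.05 with a rise and 1 with a fall. Without shikonin 1, shikonin 2, DMSO 1 or DMSO 2, factors called higher numbered 4, 3, 4 and 8 in that order, and 2.17%, 2.37%, 3.33% and 3.50% of all genes were called higher.

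**Figure D1:**
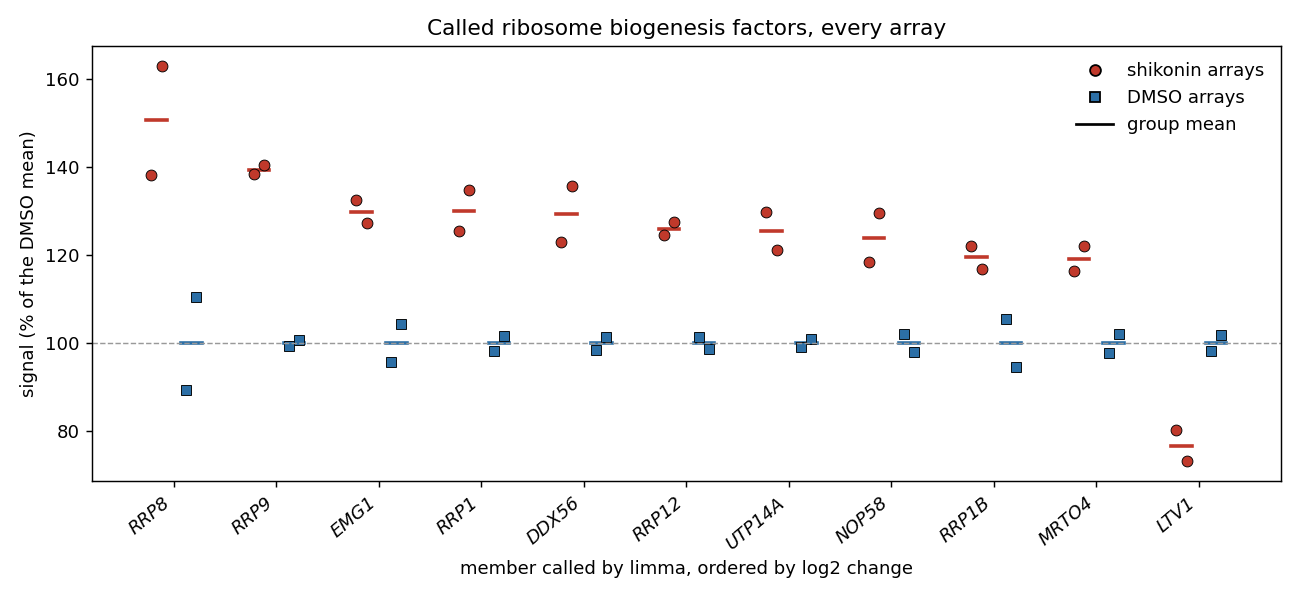
Signal of each called factor on every array, as a percentage of that gene's DMSO mean (y axis), ordered by log2 change (x axis). Red circles are the 2 shikonin arrays, blue squares the 2 DMSO arrays, and short lines the group means. In all 11 genes both shikonin arrays lie on the same side of both DMSO arrays, above in 10 and below in LTV1. The genes were picked by the limma call on these same arrays, so this separation is no further evidence.

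The whole set lay slightly above the rest of the array. The median log2 change of the 52 factors was 0.12, with the middle 50% of them between 0.04 and 0.23, against a median of 0.00 over all genes tested and of 0.05 over the brightest 25%. In 42 of 52 factors the change was above 0 (37 under quantile normalization and 39 to 42 with 1 array left out), against 50.6% of all genes and 62.4% of the brightest 25%. Both shikonin arrays lay above both DMSO arrays in 32 factors and below them in 7, while the groups overlapped in 13. Of all genes tested, 28.2% had the shikonin arrays above and 27.3% had them below. Of the brightest 25% of genes, 43.9% had them above and 25.4% below, and of the 39 factors in that class 24 had them above and 4 below, with 11 overlapping.

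The same shift appeared in each pair of arrays taken across groups. The median difference over the 52 factors was 0.12 and 0.16 for shikonin 1 and shikonin 2 against DMSO 1, and 0.12 and 0.11 for the same arrays against DMSO 2. Within a group it was -0.02 between the shikonin arrays and -0.04 between the DMSO arrays. The shift was therefore larger than the difference between arrays of 1 group, and at most 0.02 in size when all genes were taken. The pairs share the same 4 arrays, so they are not separate tests. Over the brightest 25% of genes, which held 39 of the 52 factors, the median change was 0.05. No factor changed 2-fold or more: the range ran from -0.38 for LTV1 to 0.59 for RRP8.

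**Figure D2:**
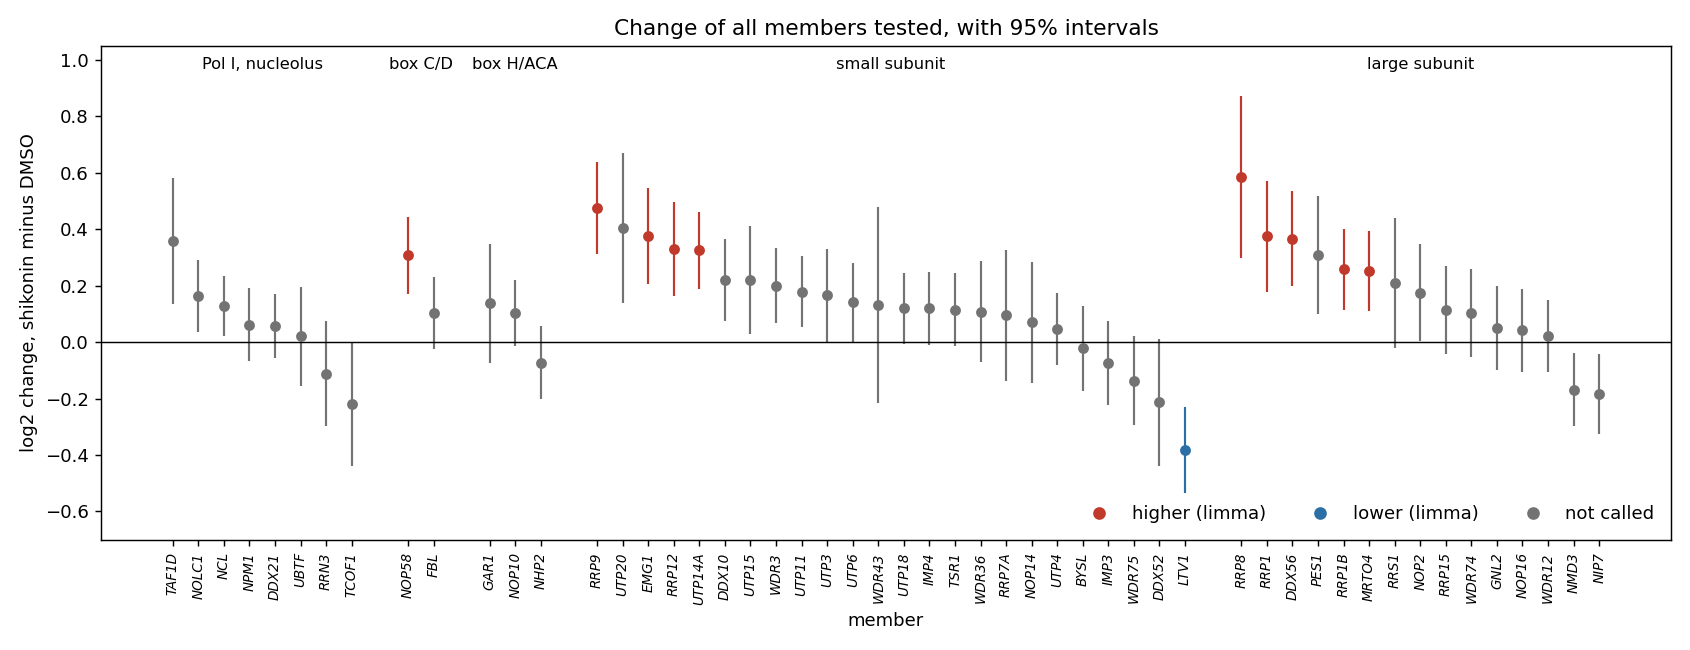
Log2 change of each of the 52 factors (y axis, shikonin minus DMSO) with its 95% interval from limma, grouped by role (x axis). Red is called higher, blue called lower and grey not called. Most points lie a little above 0, and the called ones belong to the small subunit, large subunit and box C/D groups.

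Among factors of RNA polymerase I transcription and nucleolar organisation, 0 of 8 were called by limma (3 with a rise and 0 with a fall had an unadjusted p under 0.05), and the median log2 change was 0.06. Of all 13559 genes tested, 1800 with a rise and 1994 with a fall had an unadjusted limma p under 0.05. Among the 3390 genes of the brightest 25%, the numbers were 877 and 573. UBTF, which binds the ribosomal gene promoter, had signals of 1418 and 1496 after shikonin and of 1423 and 1448 in DMSO (log2 change 0.02, 95% interval -0.15 to 0.20). RRN3, which links the polymerase to its promoter, had 1864 and 1643 after shikonin and 1872 and 1913 in DMSO (-0.11, interval -0.30 to 0.07). Both intervals include 0.

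TAF1D, a subunit of SL1, had the highest change of this group, 0.36 (interval 0.14 to 0.58, adjusted p = 0.0549 by limma), with signals of 907 and 1009 after shikonin and 768 and 720 in DMSO. The groups did not overlap, but the value missed the threshold, and other probe sets of the gene went the other way, as given further on. TCOF1, which encodes treacle, the protein altered in Treacher Collins syndrome, had the lowest change, -0.22, with 663 and 674 after shikonin and 799 and 759 in DMSO (adjusted p = 0.207 by limma).

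The abundant nucleolar proteins were not called. NCL, nucleolin, had signals of 18543 and 18396 after shikonin and of 17221 and 16560 in DMSO (log2 change 0.13, adjusted p = 0.129 by limma). Its other, far dimmer probe set read the other way without being called, with 101 and 80.8 after shikonin and 123 and 152 in DMSO (log2 change -0.55, adjusted p = 0.238 by limma). The groups did not overlap in either probe set of NCL, and with the mean of both the change was -0.21. NOLC1, a chaperone of snoRNPs, changed by 0.16, DDX21, an RNA helicase that acts on polymerase I transcription and on snoRNAs, by 0.06, and NPM1, the histone and ribosome chaperone nucleophosmin, by 0.06. Under quantile normalization DDX21 and NPM1 lay at -0.045 and -0.024. The 2 other probe sets of NPM1 lay at 0.10 and 0.13 and were not called. NPM1 has many processed pseudogenes, so the copy behind its signal is uncertain.

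In the box C/D snoRNP, which places methyl groups on ribose, NOP58 rose. This core protein had signals of 9291 and 10162 after shikonin and 8012 and 7683 in DMSO (means 9726 ± 616 and 7847 ± 233, SD, n = 2 each), 1.24-fold higher (log2 change 0.31, SE 0.060, limma adjusted p = 0.0146). Both shikonin arrays lay above both DMSO arrays. The call was lost without shikonin 2 (adjusted p = 0.102 by limma) and with no filter on dim probe sets. FBL, fibrillarin, the methyltransferase of the same particle, had 14665 and 16020 after shikonin and 14059 and 14480 in DMSO, a change of 0.10 that was not called (adjusted p = 0.303 by limma).

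In the box H/ACA snoRNP, 0 of the 3 measured proteins were called by limma, and each had an unadjusted p above 0.05. GAR1 changed by 0.14 (interval -0.07 to 0.35), NOP10 by 0.10 (interval -0.01 to 0.22) and NHP2 by -0.07 (interval -0.20 to 0.06). The groups overlapped in GAR1 and NHP2.

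The small subunit group was the largest, with 24 measured factors, of which 4 were called higher (16.7%) and 1 lower (4.17%). Of all genes tested, 5.00% were called higher and 6.67% lower, and of the brightest 25% of genes 10.6% and 9.06%. RRP9, a protein specific to the U3 snoRNP that guides the first cuts of the precursor, had signals of 1998 and 2025 after shikonin and 1434 and 1452 in DMSO (means 2011 ± 19.2 and 1443 ± 12.5, SD, n = 2 each). It was 1.39-fold higher (log2 change 0.48, SE 0.072, limma adjusted p = 0.00441). Its arrays were close together within each group, and RRP9 is the only one of the 11 called factors that was called in all 4 fits that left out 1 array (adjusted p 0.0112 to 0.0233, log2 change 0.47 to 0.49).

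EMG1, which methylates a pseudouridine of 18S ribosomal RNA, had signals of 2336 and 2243 after shikonin and 1687 and 1841 in DMSO, 1.30-fold higher (log2 change 0.38, SE 0.076, limma adjusted p = 0.0165). The call was lost without DMSO 1 or shikonin 1 (adjusted p up to 0.0776), while the change stayed between 0.31 and 0.44. RRP12, a HEAT-repeat protein that acts in late maturation and export of precursors, had 1803 and 1847 after shikonin and 1468 and 1428 in DMSO (log2 change 0.33, SE 0.074, limma adjusted p = 0.0249). Its groups were well apart, yet with 1 array fewer the test no longer called it, whichever of the 4 was left out (adjusted p 0.0584 to 0.109). Nor was it called without _x_at and _s_at probe sets or with the mean of its probe sets, where its change was 0.04. That mean takes in dimmer probe sets, with mean signals of 606, 76.7, 71.3 and 69.4 against 1637 for the brightest.

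UTP14A, which in yeast recruits and activates the helicase that releases U3 RNA, had signals of 5536 and 5167 after shikonin and 4227 and 4308 in DMSO. It was 1.25-fold higher (log2 change 0.33, SE 0.061, limma adjusted p = 0.0122) and lost the call without shikonin 1 (0.0803) and with the mean of its probe sets, where its change was 0.18. The probe set that the annotation gives jointly to ALG11, UTP14A and the intronless copy UTP14C was called higher as well (log2 change 0.28), with 3798 and 3498 after shikonin and 3081 and 2937 in DMSO.

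LTV1, which is bound to late small subunit precursors and must leave them for maturation, was the factor that fell. Its signals were 3684 and 3359 after shikonin and 4508 and 4672 in DMSO (means 3522 ± 230 and 4590 ± 116, SD, n = 2 each), a log2 change of -0.38 (SE 0.067, limma adjusted p = 0.00891). Both shikonin arrays lay below both DMSO arrays, and the call was lost without shikonin 2 (0.0539). A second, dimmer probe set of LTV1 read the other way without being called (454 and 408 after shikonin, 339 and 327 in DMSO, log2 change 0.36, adjusted p = 0.125 by limma). With the mean of both probe sets the change was -0.01.

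Of the other 19 small subunit factors, UTP20, WDR3, DDX10 and UTP11 came close to the threshold. UTP20, a very large scaffold protein, had 876 and 754 after shikonin and 571 and 655 in DMSO (log2 change 0.40, interval 0.14 to 0.67, adjusted p = 0.0659 by limma). WDR3, a subunit of the UTP-B complex, had a change of 0.20, DDX10, a helicase, 0.22, and the processome protein UTP11 0.18, with adjusted p of 0.0659, 0.0674 and 0.0795 by limma. In each of these 4 genes the shikonin arrays lay above the DMSO arrays.

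Within the UTP-A complex, which binds the start of the precursor, UTP15 changed by 0.22, WDR43 by 0.13, UTP4 by 0.05 and WDR75 by -0.14, and 0 of the 4 were called. In the UTP-B complex UTP6 changed by 0.14, UTP18 by 0.12 and WDR36 by 0.11. IMP4 and IMP3, partners in the same U3-bound complex, lay at 0.12 and -0.07. UTP3 changed by 0.17, RRP7A by 0.09 and NOP14 by 0.07. The late factors TSR1, a GTPase-like protein, and BYSL, bystin, changed by 0.12 and -0.02. DDX52, a helicase, had the second lowest value of the small subunit group, -0.21 (adjusted p = 0.227 by limma). Its signals were 731 and 679 after shikonin and 846 and 791 in DMSO. The 3 other probe sets of DDX52 lay at -0.18, 0.18 and 0.44 (the last with a mean signal of 40.7), none called. For UTP15, UTP4 and UTP18 the other, dimmer probe set also read the other way, at -0.15, -0.03 and -0.18, none called.

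Of the 15 measured large subunit factors, 5 were called higher and 0 lower by limma (7 and 2 had an unadjusted p under 0.05 with a rise and a fall), and the median log2 change of 0.18 was higher than the 0.13 of the small subunit group. That difference between the groups was not tested. Among the 3390 genes of the brightest 25%, 877 with a rise and 573 with a fall had an unadjusted limma p under 0.05. Of these 3390 genes, 10.6% were called higher and 9.06% lower, and of all genes tested 5.00% and 6.67%. RRP8, a methyltransferase that modifies an adenine of 28S ribosomal RNA and is also known for silencing ribosomal genes, had the highest change of all 52 factors. Its signals were 942 and 1111 after shikonin and 610 and 754 in DMSO (means 1026 ± 120 and 682 ± 102, SD, n = 2 each), 50.1% higher (log2 change 0.59, SE 0.13, limma adjusted p = 0.0226). Arrays of each group differed more here than for RRP9, and the call was lost without DMSO 1 or shikonin 2 (adjusted p up to 0.106) and with no filter on dim probe sets. It was lost too without _x_at and _s_at probe sets and with the mean of its probe sets, where the change was 0.18. In the former, a far dimmer probe set stood for RRP8 (82.2 and 101 after shikonin, 109 and 108 in DMSO). The change of that probe set, -0.23, had an interval of -0.83 to 0.38.

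RRP1 and RRP1B, paralogs of a yeast factor for the maturation of 27S precursors, both rose. RRP1 had signals of 1182 and 1268 after shikonin and 926 and 958 in DMSO (log2 change 0.38, SE 0.087, limma adjusted p = 0.0289). RRP1B had 11697 and 11191 after shikonin and 10106 and 9057 in DMSO (log2 change 0.26, SE 0.063, limma adjusted p = 0.0357). The call on RRP1 was lost whichever array was left out (adjusted p 0.0564 to 0.140), and that on RRP1B was lost without DMSO 2, shikonin 1 or shikonin 2 (adjusted p up to 0.160), under quantile normalization and with the mean of its probe sets, where its change was 0.05. With no filter on dim probe sets, neither was called.

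DDX56, a nucleolar helicase, had signals of 2591 and 2859 after shikonin and 2076 and 2140 in DMSO, 1.29-fold higher (log2 change 0.37, SE 0.074, limma adjusted p = 0.0165). Leaving out DMSO 1 or shikonin 2 ended this call (adjusted p up to 0.101), as did the mean of its probe sets. MRTO4, which holds the place of the stalk protein P0 on the precursor, had 3747 and 3929 after shikonin and 3153 and 3289 in DMSO (log2 change 0.25, SE 0.064, limma adjusted p = 0.0401) and lost the call whichever array was left out (adjusted p 0.0642 to 0.189) and with no filter on dim probe sets. Its other probe set was called too, with 1812 and 1933 after shikonin and 1310 and 1199 in DMSO (log2 change 0.57, SE 0.083, limma adjusted p = 0.00353).

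PES1, which forms a complex with BOP1 and WDR12, had 2784 and 3053 after shikonin and 2151 and 2569 in DMSO, a change of 0.31 that missed the threshold (adjusted p = 0.0725 by limma). WDR12 itself lay at 0.02 (interval -0.11 to 0.15). RRS1, which in yeast helps to place the 5S particle, changed by 0.21, NOP2, a cytosine methyltransferase, by 0.18, RRP15 by 0.11, WDR74 by 0.10, the GTPase GNL2 by 0.05 and NOP16 by 0.04.

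NIP7 and NMD3 were the large subunit factors with values below 0. NMD3, the adaptor that carries the large subunit out of the nucleus, had 4598 and 4425 after shikonin and 5118 and 5019 in DMSO (log2 change -0.17, interval -0.30 to -0.04, adjusted p = 0.108 by limma). Its 2 other probe sets lay at -0.16 and -0.18 and were not called either. NIP7 had 3107 and 3264 after shikonin and 3652 and 3587 in DMSO (log2 change -0.18, adjusted p = 0.105 by limma). In both genes the shikonin arrays lay below the DMSO arrays, as in 27.3% of all genes tested and 25.4% of the brightest 25%.

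Of the 52 factors, 28 had further probe sets above the filter, 45 in all. Of these, 28 changed in the same direction as the brightest probe set and 17 in the opposite one. Both kinds included dim probe sets, with mean signals down to 35.2 among the 28 and 38.7 among the 17. Of the 45 intervals, 6 lay wholly above 0 and 2 wholly below it, so most of these directions are uncertain. The 8 called factors with further probe sets had 11 of them, of which 6 went the same way and 5 the opposite way, and only the further probe set of MRTO4 was called among these 11. Across all 45, 1 was called higher and 1 lower. The one called lower belongs to TSR1, with 1175 and 1234 after shikonin and 1566 and 1797 in DMSO (log2 change -0.47, limma adjusted p = 0.0129), against 5722 and 5523 after shikonin and 5106 and 5276 in DMSO for its brightest probe set. Whether these probe sets read different transcripts of TSR1 was not tested.

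**Figure D3:**
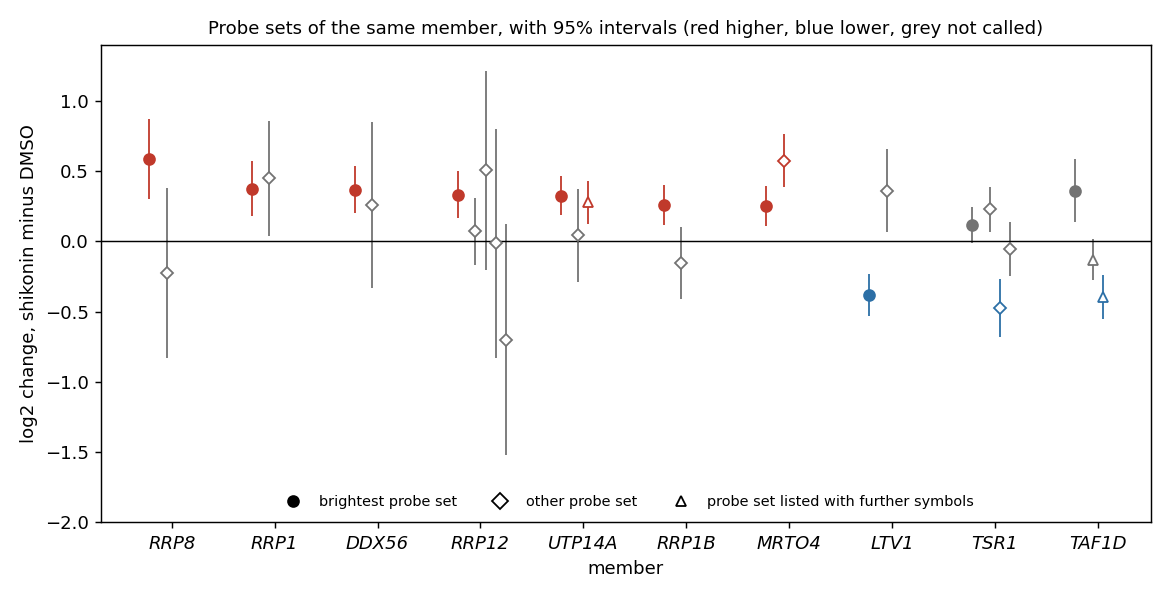
Log2 change (y axis, shikonin minus DMSO) with 95% intervals for the probe sets of called factors that have several, and of TSR1 and TAF1D (x axis). Filled circles are the brightest probe set, open diamonds other probe sets and open triangles probe sets listed with further symbols. The probe sets of MRTO4, RRP1, DDX56 and UTP14A lie above 0, whereas those of RRP8, RRP12, RRP1B, LTV1, TSR1 and TAF1D lie on both sides of it.

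Of the 60 named factors, 5 were listed only together with further symbols and were counted in none of the numbers above, and DDX18, EBNA1BP2 and GNL3 were not analysed here. The values of such probe sets belong to all their symbols jointly, and they were added after being seen. The probe set for PPAN, a large subunit factor, and the readthrough transcript PPAN-P2RY11 had signals of 1560 and 1807 after shikonin and 913 and 828 in DMSO. It was 1.92-fold higher (log2 change 0.94, SE 0.099, limma adjusted p = 6.82e-04), more than any of the 52 factors, and was called in all 4 fits that left out an array. With 1 variance prior for all signals its adjusted p was 0.151.

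The brighter probe set listed for NOP56, a box C/D core protein, with the snoRNAs of its introns had 13347 and 12748 after shikonin and 11165 and 11312 in DMSO (log2 change 0.21, limma adjusted p = 0.0303). It lost the call whichever array was left out (adjusted p 0.0660 to 0.189), with no filter on dim probe sets and under quantile normalization, where its change was 0.13, and its other probe set, at 0.29, was not called (0.0542). The 3 probe sets listed for DKC1, the pseudouridine synthase, with SNORA56 and MIR664B lay between 0.04 and 0.16, the 2 for BOP1 with MIR7112 at 0.16 and 0.00, and that for DDX47 with APOLD1 at 0.22. None of these 6 was called by limma, and 4 of them had an unadjusted p under 0.05. Such a p with a rise was found for 1800 of the 13559 genes tested and for 877 of the 3390 brightest.

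TAF1D is a host gene too, and its jointly listed probe sets went against its own. The probe sets listed for TAF1D with the snoRNAs of its introns had 4272 and 4040 after shikonin and 4701 and 4405 in DMSO (log2 change -0.13, not called), and 2569 and 2515 after shikonin and 3202 and 3501 in DMSO (log2 change -0.40, limma adjusted p = 0.00914). Both shikonin arrays lay below both DMSO arrays in each. No direction can be given for TAF1D from these 3 probe sets.

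Of 79 further factors of the pathway that are not among the 60, 77 were tested, and 7 (9.09%) were called higher and 3 (3.90%) lower. Their median log2 change was 0.11, and 55 of 77 lay above 0. Over all genes tested, 5.00% were called higher and 6.67% lower, and among the brightest 25% of genes 10.6% and 9.06%. Above 0 lay 50.6% of all genes and 62.4% of the brightest 25%. UTP25, a processome protein, was called with 980 and 1061 after shikonin and 657 and 670 in DMSO (log2 change 0.61, limma adjusted p = 0.00492). MYBBP1A, a nucleolar regulator of polymerase I, changed by 0.48, SHQ1, an assembly factor of box H/ACA particles, by 0.41, and REXO4, a nucleolar protein with an exonuclease domain, by 0.29, all called. MYBBP1A lost the call without shikonin 2 (adjusted p = 0.0750 by limma), and REXO4 lost it whichever array was left out (0.0935 to 0.194). With the mean of their probe sets, UTP25 (0.103) and MYBBP1A (0.0512) were not called either.

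The 3 called lower were ESF1, BRIX1 and EFL1. ESF1, a factor of early ribosomal RNA processing, had 1375 and 1192 after shikonin and 2004 and 1871 in DMSO (log2 change -0.59, limma adjusted p = 0.00462). BRIX1, a large subunit assembly factor, changed by -0.53 and EFL1, the GTPase that with SBDS releases EIF6 from the large subunit, by -0.40. BRIX1 lost the call without shikonin 1 (adjusted p = 0.0647 by limma) and EFL1 without shikonin 2 (0.0507). The direction of UTP25 rests on an _x_at probe set: without _x_at and _s_at probe sets its change was -0.04.

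**Figure D4:**
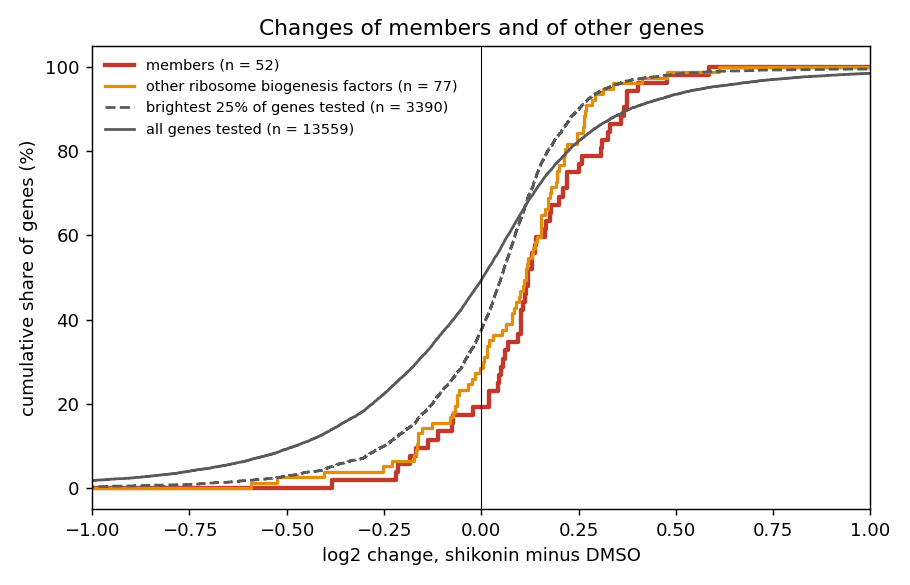
Cumulative share of genes (y axis, percent) by log2 change (x axis, shikonin minus DMSO) for the 52 factors, the 77 other factors of the pathway, the brightest 25% of genes and all genes tested. Of the 52 factors 42 lie to the right of 0, against 50.6% of all genes, and the curves cross their middle at medians of 0.12 and 0.11 against 0.05 in the brightest 25% and 0.00 over all genes.

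Promoters were examined because genes of this kind are known MYC targets. MYC protein binds the E-box, CACGTG, which reads the same on both strands. RefSeq promoter windows of 250 bases before to 50 bases after the gene start (GRCh38.p14) were found for 45 of the 52 factors. An E-box stood in 16 of these 45 windows (35.6%), against 1091 of the 10906 windows of all genes tested and 7.43% of all windows. The E-boxes of the factors lay close to the start: 15 of their 19 (78.9%) began within the last 25 bases before it or the 50 bases after it, against 23.1% of E-boxes in the windows of all genes tested.

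**Figure D5:**
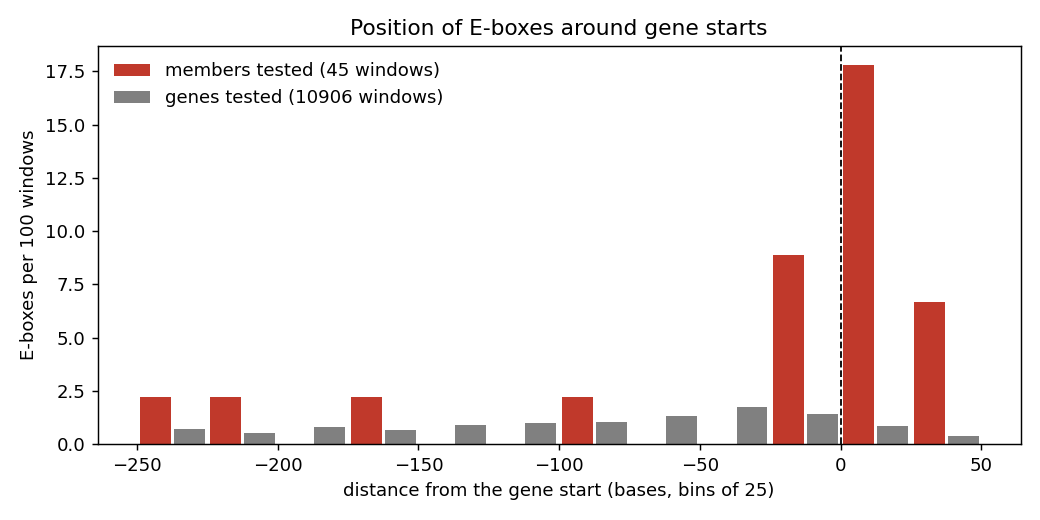
E-boxes per 100 promoter windows (y axis) by distance from the gene start in bins of 25 bases (x axis, negative before the start). Red bars are the 45 factors with a window and grey bars the 10906 genes tested with one. The red bars are highest in the first 25 bases after the start, at 17.8 per 100 windows against 0.834.

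The stretches below show E-boxes of some called and uncalled factors, in capitals. They run from 50 bases before to 20 bases after the start, except that of UTP14A, whose E-box lies at the far end of its window. Shown are the 3 factors called higher that have an E-box and the uncalled ones with an E-box in the last 20 bases before the start, printed 5′ to 3′ along the gene's strand. The E-box of LTV1, called lower, begins at base 29, counting the start as base 1, beyond the printed stretch, and is not shown.
RRP9, called higher, chr3:51941885-51941954, minus strand: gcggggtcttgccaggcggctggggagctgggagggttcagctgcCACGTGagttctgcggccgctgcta
MRTO4, called higher, chr1:19251755-19251824, plus strand: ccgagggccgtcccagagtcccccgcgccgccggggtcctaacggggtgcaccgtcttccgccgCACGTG
UTP14A, called higher, chrX:129905914-129905983, plus strand: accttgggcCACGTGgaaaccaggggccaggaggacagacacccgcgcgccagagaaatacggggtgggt
UTP20, not called, chr12:101280055-101280124, plus strand: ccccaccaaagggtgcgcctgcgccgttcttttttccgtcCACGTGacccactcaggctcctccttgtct
NOP10, not called, chr15:34343117-34343186, minus strand: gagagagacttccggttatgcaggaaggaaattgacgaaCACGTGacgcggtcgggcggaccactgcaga
UTP4, not called, chr16:69132599-69132668, plus strand: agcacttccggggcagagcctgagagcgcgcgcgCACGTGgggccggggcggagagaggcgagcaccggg

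Median changes were close with and without the motif. The 16 factors with an E-box had a median log2 change of 0.12 and a range from -0.38 to 0.48, and the 29 without had a median of 0.11 and a range from -0.18 to 0.59. Of the 16, RRP9, MRTO4 and UTP14A were called higher and LTV1 lower, and of the 29, 4 were called higher and 0 lower. Over all genes tested with a window, the median was 0.02 with an E-box and 0.00 without, and 5.77% and 5.25% were called higher and 8.16% and 6.75% lower.

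MYC itself was lower, with signals of 16833 and 18295 after shikonin and 22497 and 23146 in DMSO (log2 change -0.38, SE 0.054, limma adjusted p = 0.00325). It was called in all 4 fits that left out an array. The median change of the 52 factors, 0.12, thus had the opposite sign. Whether MYC has a part in the factors' levels was not tested.

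A further motif was searched on both strands of the same windows, without regard to overlaps with the E-box. The core of the antioxidant response element, TGACNNNGC, which NRF2 and its partners bind, was in 5 of the 45 windows (11.1%), against 15.1% for all genes tested and 13.6% of all windows. A match only describes these letters in the window.

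Some of the factors' genes carry snoRNAs in their introns. Of the hosts NCL, NOP56, NOP58, DKC1, TAF1D and WDR43, 4 had a probe set of their own. Their log2 changes were 0.31 for NOP58, 0.36 for TAF1D, 0.13 for NCL and 0.13 for WDR43, and only NOP58 was called. The probe sets listed jointly for TAF1D lay at -0.13 and -0.40, and the dimmer one of NCL at -0.55. In WDR43 the groups overlapped. The arrays read polyadenylated messages by 3′-end amplification, so these values say nothing of the snoRNAs.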

How the data were processed

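The deposited values are the authors' linear probe set intensities of 4 arrays (total RNA, biotin-labelled by 3′ amplification, per the labels). The summarising software was not given in the sources used here, but the mean trimmed by 2% at each end was 499.9 on every array, so values had been scaled to a common level and changes are relative to the rest of the array. Detection calls were not used here.

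Values were converted to log2(signal + 9.94), the pseudocount being the 20th percentile of all values, so folds understate changes of dim genes. Array medians lay within 0.066 (log2), under a limit of 0.1, and no further normalization was applied. The 62 controls and the dimmest 40% of probe sets were left out, which kept 32768. Shikonin and DMSO (2 arrays each) were compared with limma 3.58.1 in R 4.3.3 (lmFit, eBayes with trend, two-sided), with p-values adjusted by Benjamini-Hochberg over these probe sets, at 0.05. Intervals are at 95%. Degrees of freedom were 2 (residual) and 7.1 (prior). The procedure was run on data simulated from the variances of this same fit, which cannot test the model of the variance. Probe sets were named from the platform annotation (41097 with 1 symbol, 1801 with several, 11777 with none listed). All 52 factors with a probe set of their own matched RefSeq by gene identifier with the same symbol. All factors were named, with the called ones in full, and of the further factors up to 4 called in each direction. The factors, lists and roles were chosen with earlier results of these data known. Alternatives were the pseudocount, filter, normalization, variance prior, choice of probe set, arrays left out and a replicate block.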

Additional observations from a re-analysis of the deposited data

How the results depend on the processing

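The median log2 change of the 52 factors, 0.12, kept its sign under all 13 alternatives and ranged from 0.098 to 0.140. In each it moved by less than the spread of the factors' median between arrays (SD 0.024). That spread was taken from the same 4 arrays, so fits that left out 1 of them could hardly exceed it and are no separate check. The median stayed at 0.12 with no filter, the lowest 60% left out, a single variance prior or the replicate block. These settings left the factors' log2 changes as they were and so say nothing of the median's stability. The number of factors called did not hold as well. For each count, only the settings that moved it most are named below. Under the settings not named, 7 to 15 factors and 475 to 873 of all genes were called higher. Factors called higher numbered 10, against 5 with no filter on dim probe sets, 0 with a single variance prior, 18 with the replicate block and 3 to 8 with 1 array left out. Factors called lower numbered 1, against 2 with quantile normalization, 2 without _x_at and _s_at probe sets, 2 with the replicate block, 0 with a single variance prior, 0 with the mean of all probe sets per gene and 0 to 1 with 1 array left out. All genes called higher numbered 678, against 350 with no filter, 0 with a single variance prior, 1254 with the replicate block and 295 to 473 with 1 array left out; those called lower numbered 905, against 0 with a single variance prior. Other factors of the pathway called higher numbered 7, against 4 with no filter, 12 with the lowest 60% left out, 0 with a single variance prior, 4 without _x_at and _s_at probe sets, 18 with the replicate block and 2 to 4 with 1 array left out. Those called lower numbered 3, against 5 with quantile normalization, 5 with the replicate block and 0 with a single variance prior.

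Of the called genes named, RRP8 (-0.23, from a far dimmer probe set) and UTP25 (-0.040) changed sign, both without _x_at and _s_at probe sets. Of the uncalled factors, 16 changed sign under at least 1 alternative, with the following log2 changes. Without _x_at and _s_at probe sets these were TSR1 (-0.47, then called), NCL (-0.55) and NOP16 (-0.00062). With the mean of all probe sets per gene they were NCL (-0.21), TSR1 (-0.046), UTP18 (-0.029) and DDX52 (0.055). With quantile normalization they were DDX21 (-0.045), WDR12 (-0.026), NPM1 (-0.024), UTP4 (-0.0076) and NOP16 (-0.0066), as well as probe sets listed jointly for BOP1 (0.037) and DKC1 (-0.0025). With 1 array left out, the changes ranged from -0.068 to 0.026 for BYSL, -0.018 to 0.29 for GAR1, -0.017 to 0.12 for GNL2, -0.16 to 0.0092 for IMP3, -0.054 to 0.19 for NOP14, -0.033 to 0.12 for NOP16, -0.017 to 0.14 for NPM1, -0.018 to 0.060 for UBTF, -0.0052 to 0.046 for WDR12 and -0.11 to 0.37 for WDR43. For the same probe sets of BOP1 and DKC1 they ranged from -0.22 to 0.21 and from -0.0019 to 0.082. Samples with the same number did not deviate together (correlation 0.02), so the numbers were not taken as pairs. In fits without 1 array, the lone array of a group is assumed to vary like the other group. Other causes of these differences were not tested. Precision is limited by the 2 arrays a group, and signal over background was not used here.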
